A study of Mus musculus with 16 samples.

Results

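The genes described here are 10 cytosolic glutathione S-transferases of the mouse: Gsta1, Gsta2, Gsta3 and Gsta4 of the alpha class, Gstm1, Gstm2, Gstm3 and Gstm5 of the mu class, Gstp1 of the pi class and Gsto1 of the omega class. They were found by gene name, or an older synonym, among the non-control probes of the array, which gave 13 of 41174 probes: 2 each for Gsta3, Gstm1 and Gstp1 and 1 for each of the other 7 genes. Their levels were followed in whole lungs of BALB/c pups exposed at 3 days of age, for 3 h, to 1000 ppb of ozone or to filtered air, and killed 6 h or 24 h afterwards. The 4 groups are air at 6 h, ozone at 6 h, air at 24 h and ozone at 24 h, with 4 lungs in each, 1 lung to an array and 16 arrays in all. Cross-fostering left no pup without a dam while it was exposed, and pentobarbital was used to kill all of them. The controls were littermates, and each time was run as an experiment of its own. The 4 lungs were drawn at random from a larger group of animals, and the spread below is taken as that between pups. The labels do not say which pup came from which litter. Lungs of 1 group may thus share a litter, which the tests could not allow for.

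Glutathione S-transferases join the tripeptide glutathione to reactive, electron-poor molecules, which can then be exported from the cell and processed for excretion. The alpha class also reduces lipid hydroperoxides, and Gsta4 is known for its action on the hydroxyalkenals that form when membrane lipids are oxidised. Omega-class enzymes work mainly as thiol transferases and as dehydroascorbate reductases. Ozone reacts with unsaturated lipids at the airway surface and leaves aldehydes and hydroperoxides, which are substrates of this family. In the lung the enzymes are prominent in the airway epithelium, and in many tissues several of the genes are induced through the transcription factor NRF2 (Nfe2l2) at antioxidant response elements.

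Array probes are 60 bases long and bind by sequence, so near copies matter for the alpha class. The probes for Gsta1 (chr9:78083844-78087325, mm9, plus strand, across an intron) and Gsta2 (chr9:78181644-78181703, mm9, minus strand) are shown here because they overlap in 28 bases, given in capitals, of which 27 are identical. The only mismatch is T40A, counted from the 5′ end of the Gsta1 probe, where the lower-case letter stands inside the capitals.

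Gsta1: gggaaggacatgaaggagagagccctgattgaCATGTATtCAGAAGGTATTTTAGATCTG
Gsta2: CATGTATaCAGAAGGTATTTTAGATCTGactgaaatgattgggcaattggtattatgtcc

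The array's own annotation lists the same 3 genes, Gsta1, Gsta2 and Gm10639, for both probes. The values of the Gsta1 and Gsta2 probes therefore cannot be assigned to 1 of these genes with certainty. All other pairs of probes from different genes, 74 in number, shared at most 9 bases in a row. For Gstp1 the first of its probes below is listed for Gstp1 and the neighbouring copy Gstp2, and the second for Gstp1 alone.

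A_51_P374457: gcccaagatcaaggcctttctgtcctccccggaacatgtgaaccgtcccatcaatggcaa
A_51_P374464: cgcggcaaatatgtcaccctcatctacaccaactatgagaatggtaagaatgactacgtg

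The genes lie on 4 chromosomes of the mm9 genome. Gsta1, Gsta2 and Gsta4 lie on chromosome 9 (Gsta4 probe at chr9:78046172-78047344), and Gsta3 lies on chromosome 1 (probes at chr1:21255189-21255248 and chr1:21255092-21255151). The 4 mu-class genes lie on chromosome 3, with probes between chr3:107701101-107701160 (Gstm5) and chr3:107815564-107815623 (Gstm1). Gstp1 (chr19:4035486-4035545 and chr19:4035908-4036723) and Gsto1 (chr19:47939128-47939187) lie apart on chromosome 19.

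Levels are log2 ratios of a probe's signal to the signal at the 75th percentile of its own array, so that 0 is the level of that percentile and 1 unit a fold of 2.00. Probes bind with unequal strength, so levels are compared between lungs for 1 probe and never between probes. All 13 probes were well above background on all 16 arrays and none was saturated, and all 13 were therefore tested. All 12 of the alveolar type II markers on the array and all 21 club cell markers were well above background on every array. Club cells are the secretory cells of the small airways. The same held for all 7 heart muscle, 7 smooth muscle and 9 erythroid markers, so these counts do not single out lung cells. Between 65.0% and 83.9% of spots on an array were well above background. The highest share was that of ozone at 6 h replicate 3, which also correlated least with its own group (mean r = 0.966 over probes). Differences were tested with limma on all 32343 probes that passed the filter. A change is called where the p-value, adjusted over all of them by Benjamini-Hochberg, is below 0.05.

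The genes called higher in ozone were 3 of the alpha class, all at 24 h. The Gsta1 and Gsta2 probes may read the same transcripts, so their rises need not be separate. The Gsta2 call depended on the background correction and the Gsta1 call on single lungs, as given below. Gsta2 rose by a fold of 2.00, Gsta1 by a fold of 1.66 and Gsta3 by a fold of 1.46, and no gene of the mu, pi or omega class passed at either time. Of the 10 genes 3 were called at 24 h, all higher, through 4 of the 13 probes. Over the whole array 1.56% of probes were called at this time, 0.439% as higher and 1.12% as lower. At 6 h none of the 10 genes was called, against 3.68% of all probes, 1.05% as higher and 2.62% as lower; limma gave 4 of the 10 an unadjusted p below 0.05. The plot of levels shows each of the 10 genes in each lung.

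**Figure D1:**
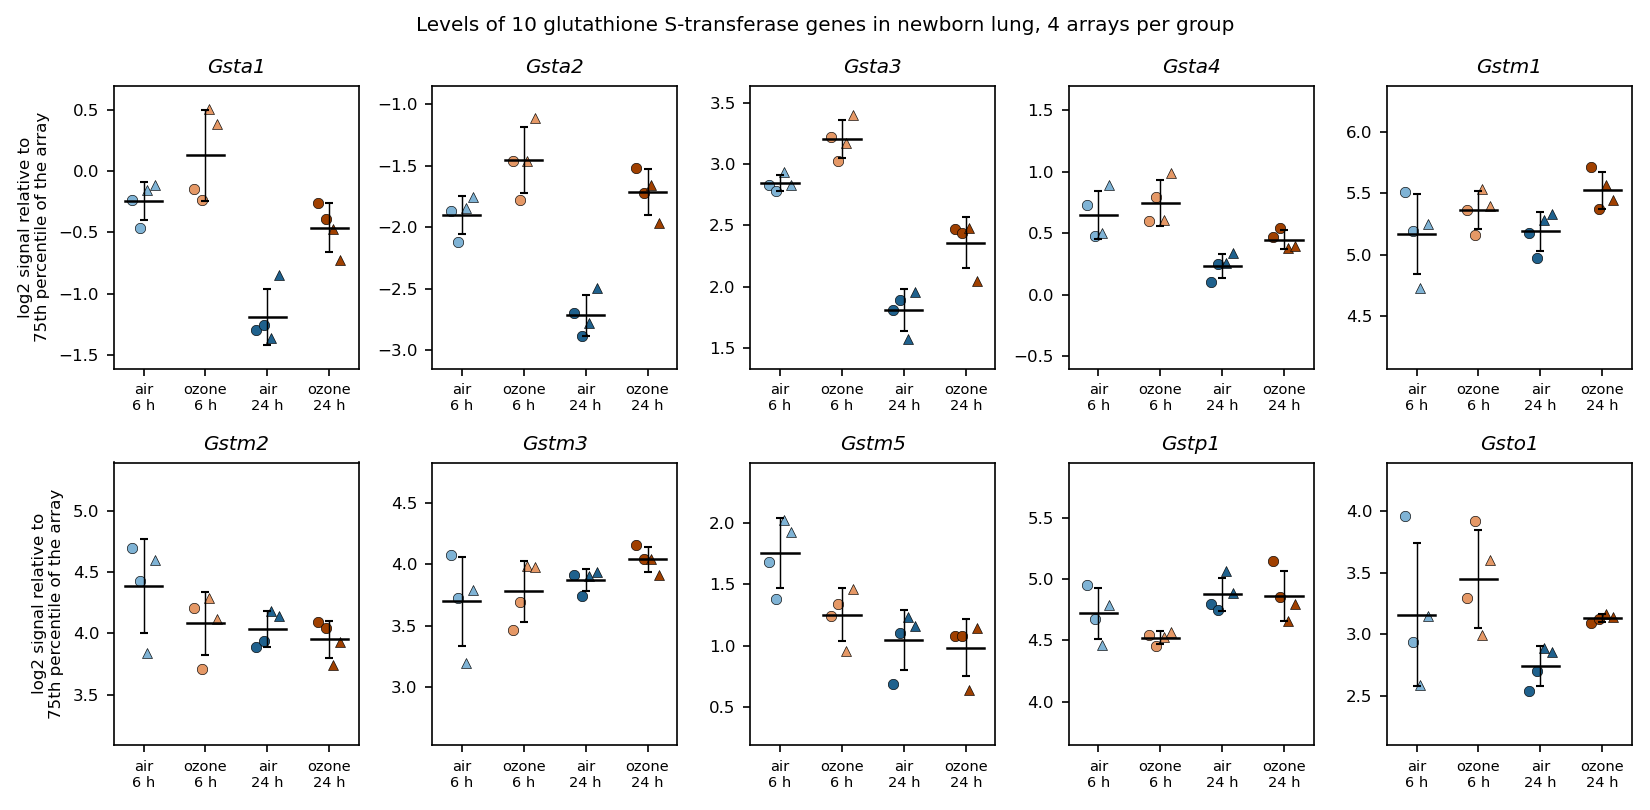
Level of each gene (log2 signal relative to the 75th percentile of the array) in the 4 lungs of each group, 1 probe per gene. Circles are replicates 1 and 2 and triangles replicates 3 and 4, which were on different slides; bars are the mean and SD. All panels span the same log2 range. The 4 ozone lungs at 24 h lie above the 4 air lungs for Gsta1, Gsta2, Gsta3, Gsta4, Gstm1 and Gsto1.

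Gsta2, an alpha-class enzyme, gave the clearest difference. At 24 h its levels were -2.70, -2.89, -2.78 and -2.49 in air and -1.52, -1.72, -1.65 and -1.96 in ozone. The lowest ozone lung thus lay above the highest air lung. The difference was 1.00 ± 0.14 log2 (SE, n = 4 against 4), a fold of 2.00 with a 95% interval from 1.63 to 2.45 (limma, adjusted p = 0.00089). It was 1.18 on the slide that held replicates 1 and 2 of both groups and 0.83 on the slide that held replicates 3 and 4. This call depended on the background correction: with normexp the difference was 0.37 ± 0.19 (limma, adjusted p = 0.268), while the median of all probes moved to -0.21.

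At 6 h Gsta2 stood at -1.87, -2.12, -1.84 and -1.76 in air and at -1.46, -1.78, -1.46 and -1.11 in ozone. Here 3 of the 4 ozone lungs lay above all air lungs and the remaining one, replicate 2, lay within the range of air. The difference of 0.45 ± 0.14 did not pass the test (limma, adjusted p = 0.0842). Without ozone at 6 h replicate 2, the lowest ozone lung, it was 0.55 and passed (limma, adjusted p = 0.0484).

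The Gsta1 probe, which shares bases with that of Gsta2 as printed above, also rose at 24 h. Its levels then were -1.29, -1.26, -1.36 and -0.85 in air and -0.26, -0.39, -0.47 and -0.73 in ozone, again with no overlap. The difference was 0.73 ± 0.16, a fold of 1.66 with a 95% interval from 1.31 to 2.09 (limma, adjusted p = 0.0253). It was 0.95 on the slide of replicates 1 and 2 and 0.51 on the other. The call was near the threshold and was lost whenever 1 of 6 lungs of 24 h was left out: ozone replicate 1, 2 or 3 (0.66, 0.70 and 0.73) or air replicate 1, 2 or 3 (0.69, 0.71 and 0.67), with limma adjusted p between 0.0686 and 0.0889. It was also lost with the level of Xist, a transcript of female cells, as a covariate (0.75, limma adjusted p = 0.0732).

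At 6 h the Gsta1 levels were -0.24, -0.47, -0.16 and -0.12 in air. The ozone lungs stood at -0.14, -0.23, 0.50 and 0.39. The pair of high values belonged to replicates 3 and 4, on 1 slide, and the other pair lay within the range of air. The difference of 0.37 ± 0.16 did not pass the test (limma, adjusted p = 0.202), and it was 0.17 on the slide of replicates 1 and 2 and 0.58 on the slide of replicates 3 and 4.

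Gsta3, an alpha-class enzyme known for its action on epoxides, was measured by 2 probes that gave the same size of rise. With A_51_P503625 the levels at 24 h were 1.81, 1.90, 1.57 and 1.96 in air and 2.47, 2.44, 2.48 and 2.05 in ozone. The groups did not overlap, and ozone replicate 4 lay well below the other 3 ozone lungs. The difference was 0.55 ± 0.10, a fold of 1.46 with a 95% interval from 1.26 to 1.70 (limma, adjusted p = 0.00922). With A_52_P432124 it was 0.55 ± 0.09 (limma, adjusted p = 0.00319). The slides gave 0.60 and 0.50 with the first probe and 0.59 and 0.51 with the second.

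Gsta3 was also the gene in which every ozone lung stood above every air lung at 6 h, as 4.41% of all probes did, while 4.52% had every ozone lung below. The levels with A_51_P503625 were 2.83, 2.78, 2.94 and 2.83 in air and 3.22, 3.03, 3.17 and 3.40 in ozone. The difference of 0.36 ± 0.10 did not pass the test (limma, adjusted p = 0.067), nor did that of the other probe, 0.27 ± 0.09 (limma, adjusted p = 0.105). The first probe passed after quantile normalization (0.40, limma adjusted p = 0.0489) and in the authors' deposited table (0.41, limma adjusted p = 0.0408). It also passed without ozone at 24 h replicate 4, which changes only the shared spread (0.36, limma adjusted p = 0.0409).

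Gsta4, the alpha-class enzyme of hydroxyalkenals, showed a smaller difference. Its levels at 24 h were 0.10, 0.25, 0.26 and 0.34 in air and 0.47, 0.55, 0.38 and 0.40 in ozone. The groups did not overlap, but the difference of 0.21 ± 0.10 (95% interval from -0.003 to 0.43) did not pass the test (limma, adjusted p = 0.436). This probe was printed 10 times on each array, and the SD between its spots was at most 0.139 log2 (median 0.0608). At 6 h the difference was 0.10 ± 0.10 and the groups overlapped.

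**Figure D2:**
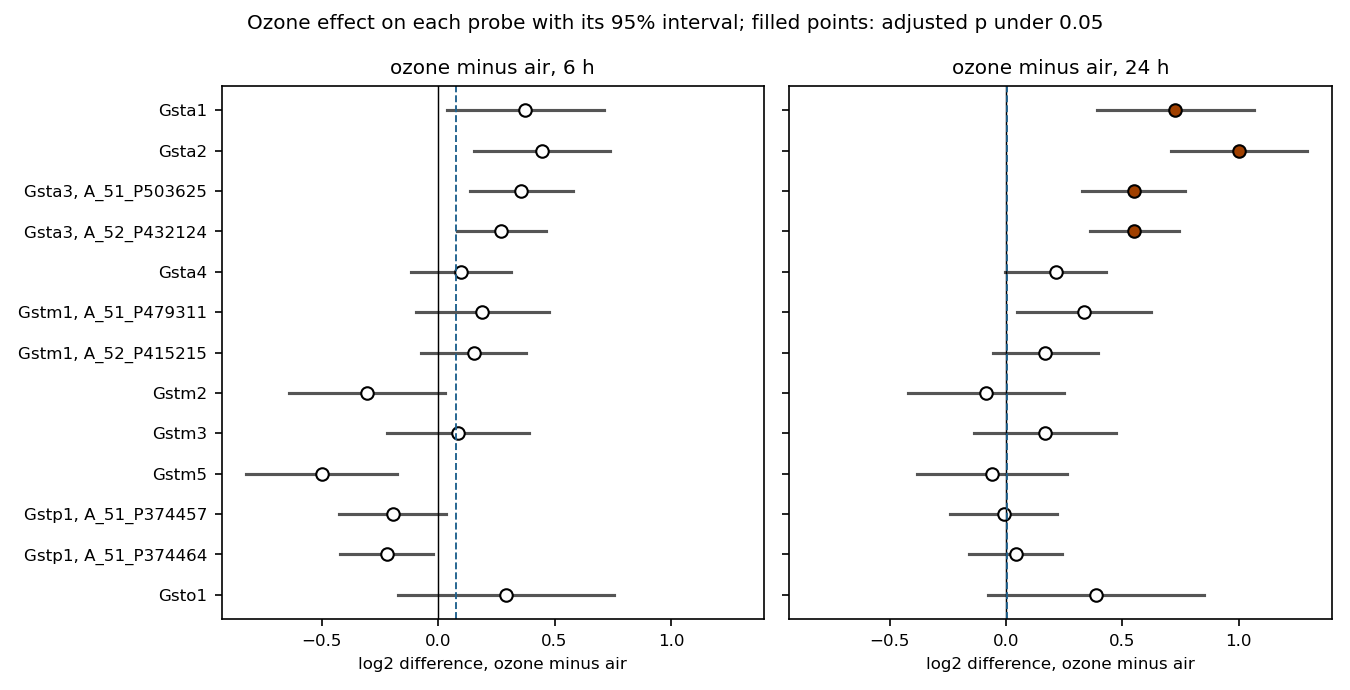
Log2 difference, ozone minus air, of each of the 13 probes at 6 h and at 24 h, with its 95% interval from limma. Filled points passed the test (adjusted p below 0.05); the dashed line is the median of all probes (0.08 at 6 h and 0.00 at 24 h). The 4 filled points are the probes of Gsta1, Gsta2 and Gsta3 at 24 h.

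In the mu class no gene was called at either time. Gstm1, the most widely expressed mu-class enzyme of rodent tissues, stood at 5.17, 4.97, 5.28 and 5.33 in air at 24 h and at 5.72, 5.37, 5.56 and 5.45 in ozone with A_51_P479311. The groups did not overlap, but the difference of 0.33 ± 0.14 did not pass the test (limma, adjusted p = 0.312), nor did that of its other probe, 0.17 ± 0.11 (limma, adjusted p = 0.619). When arrays were weighted by their fit, the first probe passed (0.37, limma adjusted p = 0.0285). At 6 h the first probe gave 0.19 ± 0.14. That value joined -0.09 on the slide of replicates 1 and 2 and 0.47 on the slide of replicates 3 and 4, which held the lowest air lung (replicate 3, at 4.73).

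The mu-class gene with the largest difference at 6 h was Gstm5, and it was lower in ozone. Its levels were 1.68, 1.38, 2.02 and 1.93 in air and 1.24, 1.34, 0.96 and 1.46 in ozone. Only air replicate 2 lay within the range of the ozone lungs. The difference of -0.50 ± 0.15 did not pass the test (limma, adjusted p = 0.0792). It passed without air replicate 2 (-0.63, limma adjusted p = 0.0209) and with normexp (-0.50, limma adjusted p = 0.0244). The groups overlapped at 24 h, where the difference was -0.06 ± 0.15 (95% interval from -0.38 to 0.26).

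Gstm2 and Gstm3 varied more between the lungs of 1 group at 6 h than between groups. Gstm2 stood at 4.69, 4.43, 3.84 and 4.59 in air at 6 h and at 4.21, 3.71, 4.29 and 4.12 in ozone, a difference of -0.31 ± 0.16 (limma, adjusted p = 0.293). With arrays weighted by their fit it passed, at -0.52 (limma, adjusted p = 0.0378). Gstm3 stood at 4.07, 3.73, 3.20 and 3.79 in air and at 3.47, 3.70, 3.98 and 3.98 in ozone, a difference of 0.08 ± 0.15. Air replicate 3 was the lowest air lung of 6 h for Gstm1, Gstm2 and Gstm3, and also for Gstp1 and Gsto1. By 24 h the values were -0.09 ± 0.16 for Gstm2 and 0.17 ± 0.15 for Gstm3, with overlapping groups in both.

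Gstp1, the pi-class enzyme of many epithelia, did not pass the test at either time. With A_51_P374457 the levels at 6 h were 4.95, 4.67, 4.46 and 4.79 in air and 4.54, 4.45, 4.53 and 4.57 in ozone, a difference of -0.20 ± 0.11 (limma, adjusted p = 0.329). The ozone lungs lay close together at the lower end of the range of air. The probe that is listed for Gstp1 alone gave -0.22 ± 0.09 (limma, adjusted p = 0.203). The probes gave -0.01 ± 0.11 and 0.04 ± 0.09 at 24 h, with 95% intervals from -0.24 to 0.22 and from -0.16 to 0.24.

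Gsto1, the omega-class thiol transferase, was close to uniform in the ozone lungs of 24 h, at 3.09, 3.12, 3.17 and 3.14. The air lungs of that time stood at 2.53, 2.70, 2.89 and 2.86, all lower. The difference was 0.39 ± 0.22 and did not pass the test (limma, adjusted p = 0.552), in which the spread of this gene is shared with the lungs of 6 h. With the 8 arrays of 24 h alone it passed at the same size, 0.39 (limma, adjusted p = 0.0382). At 6 h Gsto1 ranged widely, at 3.96, 2.94, 2.59 and 3.15 in air and 3.29, 3.92, 2.99 and 3.60 in ozone, and the difference was 0.29 ± 0.22.

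All 4 ozone lungs of 24 h lay above the 4 air lungs in 6 of the 10 genes, where 5.6% of all probes did so. Gsta1 and Gsta2, whose probes may read the same transcripts, are both among the 6. In none of the 10 did all ozone lungs lie below the air lungs, where 5.3% of all probes did. The median difference of the 10 genes at 24 h was 0.27, beside 0.02 over the 21631 genes tested, each by its brightest probe. At 6 h it was 0.14, beside 0.07. An unadjusted p below 0.05 was found for 4 of the 10 genes at each time, and for 19.8% of all probes at 6 h and 11.7% at 24 h.

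Whether the response differed between the times was tested as the difference of the ozone effects in 1 model. None of the 10 genes passed, beside 21 of the 32343 probes, or 0.0649%. The largest difference of effects was that of Gsta2, 0.56 ± 0.20 higher at 24 h (limma, adjusted p = 0.272). All 10 genes had a positive sign, with Gstm5 at 0.44 ± 0.22, Gsta1 at 0.35 ± 0.23 and Gsta3 at 0.19 ± 0.15. Their median was 0.19, beside -0.04 over all genes tested, and the share of all genes with a positive sign was not counted. With normexp Gsta2 changed sign, while the median of all probes was -0.33. Gstm1, Gstm3 and Gsto1 also changed sign in some settings. At an unadjusted p below 0.05 only Gsta2 passed among the 10 genes. The later time was thus where genes passed the test, without a difference between the times that itself passed.

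In air the alpha-class genes were much lower at 24 h than at 6 h. The 24 h pups were older, and they were also run and scanned separately, so age and run cannot be told apart here, and 50.4% of all probes were called in this comparison. Of the 10 genes, each by its brightest probe, 5 were lower and none was higher (with quantile normalization 5 lower and 3 higher), where 25.1% of all probes were lower and 25.3% higher. Of all 13 probes 6 were lower and 2 higher, the higher ones being the other probes of Gstm1 and Gstp1. Gsta3 differed by -1.04 ± 0.10, Gsta1 by -0.94 ± 0.16, Gsta2 by -0.82 ± 0.14, Gstm5 by -0.71 ± 0.15 and Gsta4 by -0.42 ± 0.10 (limma, adjusted p from 4.48e-07 to 0.00254). In each of these 5 genes all air lungs of 24 h lay below all air lungs of 6 h, as they did in 23.2% of all probes. The difference of Gsta2 was -0.28 with normexp and was then not called (limma, adjusted p = 0.24).

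The ozone lungs of 24 h were also set beside the air lungs of 6 h. These groups differ in exposure, age and run at once, which cannot be told apart, so the order of levels is only a description. The Gsta2 range in ozone at 24 h, from -1.96 to -1.52, overlapped that in air at 6 h, from -2.12 to -1.76, and 3 of its 4 lungs lay above all of the latter. The Gsta1 range, from -0.73 to -0.26, likewise overlapped that in air at 6 h, from -0.47 to -0.12. Gsta3 in ozone at 24 h, from 2.05 to 2.48, stayed below its range in air at 6 h, from 2.78 to 2.94. The mean was lowest in air at 24 h and highest in ozone at 6 h in all 3 genes. Between these came ozone at 24 h and then air at 6 h in Gsta1 and Gsta3, and the reverse in Gsta2 (-1.71 in ozone at 24 h and -1.90 in air at 6 h).

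Genes with 2 probes show how far a probe stands for its gene. The Gsta3 probes moved as one, with r = 0.990 over the 16 arrays and r = 0.863 within groups, after removal of the group means. The Gstp1 probes also kept together within groups (r = 0.906), although A_51_P374464 was called higher in air at 24 h than at 6 h (0.35 ± 0.09, limma adjusted p = 0.00522) and A_51_P374457 was not (0.15 ± 0.11). The Gstm1 probes parted between the times. In air A_52_P415215 was higher at 24 h than at 6 h by 0.90 ± 0.11 (limma, adjusted p = 2.36e-06), while A_51_P479311 differed by 0.02 ± 0.14 (95% interval from -0.27 to 0.30). Their probes lie at chr3:107815564-107815623 and chr3:107815180-107815239 in mm9, and the former starts at base 838 and the latter at base 1221 of the transcript to which the array assigns them.

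**Figure D3:**
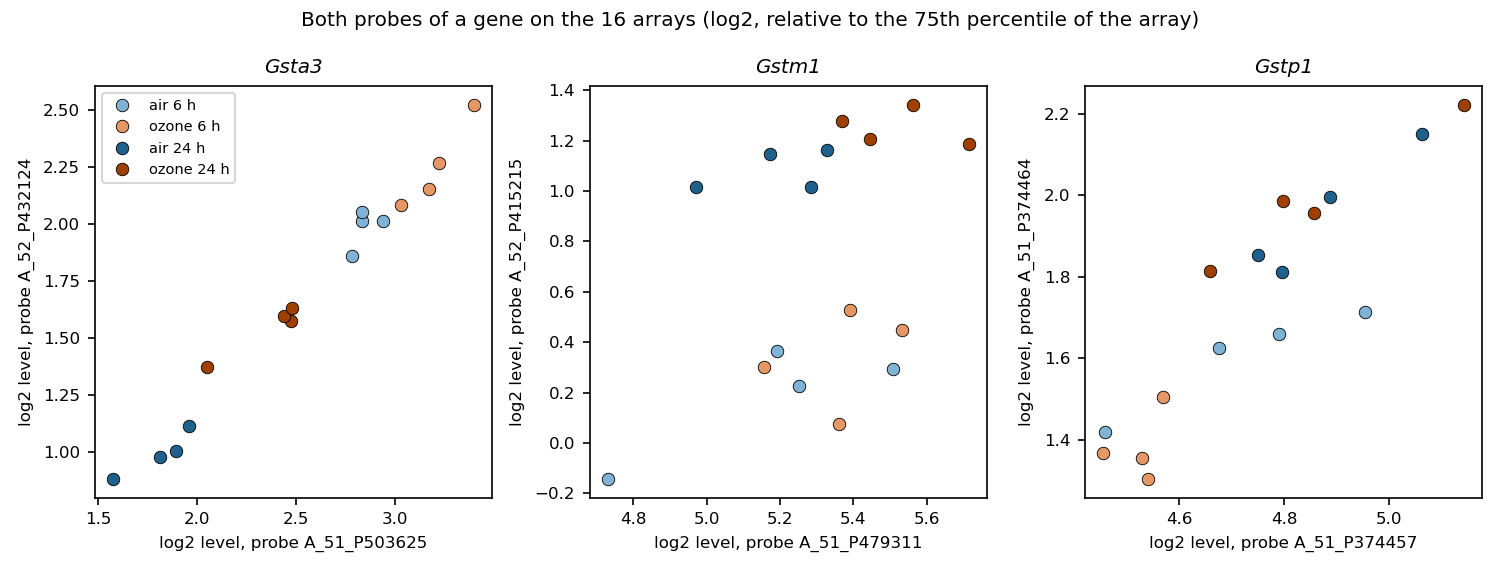
The levels of both probes of Gsta3, Gstm1 and Gstp1 in each of the 16 lungs (log2, relative to the 75th percentile of the array; colours are the 4 groups). The Gsta3 probes lie along 1 line (r = 0.990); for Gstm1 the 8 lungs of 24 h form a separate band with A_52_P415215 between 1.02 and 1.34, above the 6 h lungs at -0.14 to 0.53.

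Among the 10 genes, lungs of 1 group that were high in one mu-class gene tended to be high in another. Within groups r was 0.834 between Gstm1 (A_51_P479311) and Gstm2 and 0.832 between Gstm1 and Gstm3. The other Gstm1 probe gave 0.435 and 0.839. Gstm2 followed Gstp1 at 0.793 (A_51_P374457) and 0.647 (A_51_P374464). In the alpha class r was 0.788 between Gsta1 and Gsta2, whose probes share bases. Gsta2 and Gsta3, whose probes share no long run, gave 0.739 with A_51_P503625 and 0.874 with A_52_P432124. Gsta1 gave 0.655 and 0.622 with these Gsta3 probes. Gsta4 followed the other alpha-class probes less closely, at 0.224 to 0.547, and stood at 0.572 with Gstm5 and 0.571 with Gsto1. Gstm5 did not follow its class, with -0.308 against Gstm1, -0.285 against Gstm3 and -0.079 against Gstm2. These are descriptions over 16 arrays that share a scaling, and carry no test.

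The promoters of the 3 genes called at 24 h are shown because these genes moved together and because NRF2 binds the antioxidant response element, whose core TGACNNNGC was searched on both strands. They are the 250 bases before the start of the gene, from RefSeq (GRCm38.p6), printed in the direction of the gene with a match in capitals: Gsta1 at chr9:78230419-78230668 (plus strand), Gsta2 at chr9:78347146-78347395 (minus strand) and Gsta3 at chr1:21240335-21240584 (plus strand).

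Gsta1: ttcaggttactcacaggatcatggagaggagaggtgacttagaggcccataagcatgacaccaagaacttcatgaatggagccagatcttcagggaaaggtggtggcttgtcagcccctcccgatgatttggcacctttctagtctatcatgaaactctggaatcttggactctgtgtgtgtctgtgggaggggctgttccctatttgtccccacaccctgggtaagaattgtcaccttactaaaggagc
Gsta2: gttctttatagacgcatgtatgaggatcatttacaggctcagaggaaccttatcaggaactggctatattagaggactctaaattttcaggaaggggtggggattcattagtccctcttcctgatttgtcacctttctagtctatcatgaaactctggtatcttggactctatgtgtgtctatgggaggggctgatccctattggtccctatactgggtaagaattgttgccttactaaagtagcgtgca
Gsta3: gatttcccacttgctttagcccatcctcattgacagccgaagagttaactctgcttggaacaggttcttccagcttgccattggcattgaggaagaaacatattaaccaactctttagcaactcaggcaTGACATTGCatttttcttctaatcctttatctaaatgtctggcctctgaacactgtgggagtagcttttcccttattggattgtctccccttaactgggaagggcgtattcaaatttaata

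The Gsta1 and Gsta2 promoters resembled each other. In a global alignment 184 of 239 aligned bases (77.0%) were identical, with a longest shared run of 29 bases. The Gsta3 promoter shared a run of at most 9 bases with that of Gsta1 and of at most 7 with that of Gsta2. The core occurred in Gsta3, where it begins 121 bases before the start, and in Gstm5, where it begins 42 bases before it. It occurred in neither Gsta1 nor Gsta2 within the 300 bases searched, of which 250 lie before the start. Sequence further upstream was not searched, so a core there would not have been seen. A promoter sequence was at hand for 9 of the 10 genes, all but Gsta4, and 12.4% of all 32851 promoter windows of 300 bases held the core. A match is a description of letters only.

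The rest of the glutathione system and related lists are set beside the whole array, where 3.68% of probes were called at 6 h and 1.56% at 24 h. By limma 19.8% and 11.7% of all probes had an unadjusted p below 0.05 at these times. A list of other glutathione transferases and related proteins had 20 tested genes. Among them were the theta, kappa, zeta and microsomal enzymes, and genes of prostaglandin and leukotriene synthesis such as Ptges, Ltc4s and Alox5ap. Of the 20 limma called none at 6 h and none at 24 h (3 and 4 had an unadjusted p below 0.05). Their medians were -0.06 and 0.12. The closest at 24 h were Gstcd, at -0.36 ± 0.09 (limma, adjusted p = 0.0615), and the theta-class gene Gstt1, at 0.38 ± 0.13 (limma, adjusted p = 0.189); these were named after their values were seen.

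Of 29 genes of glutathione synthesis and recycling 3 were called at 6 h, all lower. Cth, which makes cysteine from cystathionine, fell by 0.59 ± 0.14 log2. Ahcy, which clears S-adenosylhomocysteine, fell by 0.33 ± 0.08, and Glrx3, a monothiol glutaredoxin, fell by 0.37 ± 0.10 (limma, adjusted p from 0.0328 to 0.0421). At 24 h Ahcy was called, and fell by 0.36 ± 0.08 (limma, adjusted p = 0.04). Gsr, the reductase that regenerates glutathione, was 0.68 ± 0.21 higher at 6 h without passing the test (limma, adjusted p = 0.0758). The subunits of the enzyme that limits glutathione synthesis, Gclc and Gclm, were at 0.15 ± 0.11 and 0.25 ± 0.14 at 6 h and at -0.09 ± 0.11 and -0.28 ± 0.14 at 24 h, none of them called.

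Of 18 genes of conjugate export and mercapturate processing 2 were called at 6 h and none at 24 h. By limma 9 had an unadjusted p below 0.05 at 6 h and 5 at 24 h. Abcc3, a membrane exporter of organic anions and conjugates, rose by 0.32 ± 0.08 (limma, adjusted p = 0.0408). Tpmt, which methylates thiols, fell by 0.51 ± 0.12 (limma, adjusted p = 0.0298). Their values at 24 h were 0.27 ± 0.08 and -0.40 ± 0.12, and neither passed the test.

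Of 32 other genes for removal of electrophiles and aldehydes 3 were called at 6 h and 1 at 24 h. At 6 h the sulfotransferase Sult1a1 rose by 0.40 ± 0.10 and the aldehyde oxidase Aox1 by 0.37 ± 0.08, and the quinone reductase Nqo2 fell by 0.38 ± 0.10 (limma, adjusted p from 0.0197 to 0.0362). The aldehyde dehydrogenase Aldh1a1 rose at 24 h by 0.52 ± 0.09 (limma, adjusted p = 0.00508), and its group means were 4.41 ± 0.18 in air and 4.93 ± 0.14 in ozone (SD, n = 4 each). Nqo1, a standard target of NRF2, was at -0.13 ± 0.12 at 6 h and -0.15 ± 0.12 at 24 h, and neither passed the test. Of 20 regulators of this response, NRF2, its partners and its inhibitors among them, limma called none at either time (1 had an unadjusted p below 0.05 at 6 h and 0 at 24 h), with Nfe2l2 itself at 0.06 ± 0.09 and 0.12 ± 0.09.

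**Figure D4:**
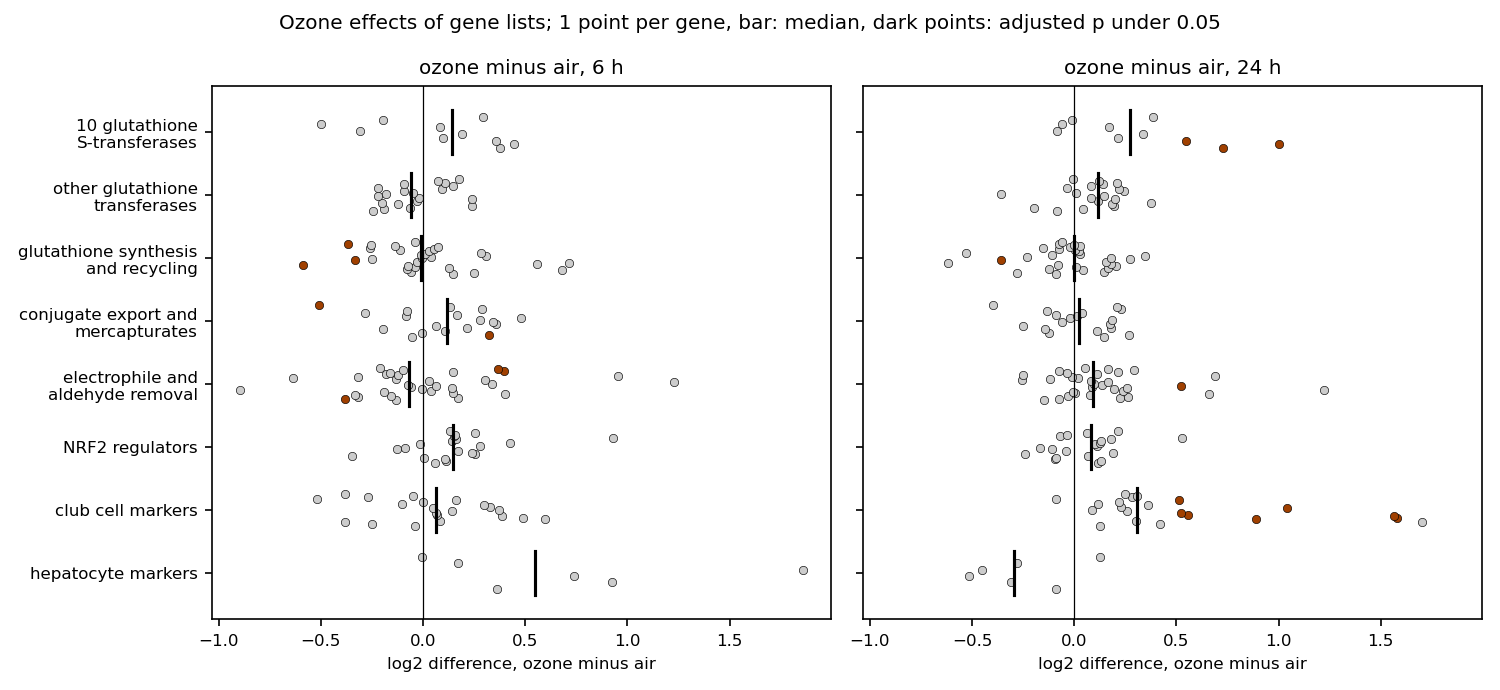
Log2 difference, ozone minus air, of each gene of the 8 lists drawn, at 6 h and 24 h, 1 point per gene; bars are list medians and dark points passed the test (limma, adjusted p below 0.05). At 24 h the dark points of these lists lie among the glutathione S-transferases (3 of 10), the club cell markers (7 of 21), and 1 each in synthesis and recycling (lower) and in electrophile and aldehyde removal (Aldh1a1, also a club cell marker).

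Some markers of club cells rose in ozone at 24 h, as did Gsta1, Gsta2 and Gsta3. Where 0.439% of all probes were called higher and 1.12% lower, 7 of the 21 markers were called higher and none lower. Those 7 differed by 0.51 to 1.58. Among them were Cyp2a5, Cyp2a4, Cyp2b10, Ces1d, Aldh1a1 and Sec14l3, most of them enzymes of foreign compound metabolism. Cyp2a4 and Cyp2a5 are near copies, and their signals may not be separate. The summed level of the 21 markers, in multiples of the 75th percentile, ran from 757 to 934 in air and from 976 to 1096 in ozone at 24 h, with no overlap. The secretory markers Scgb1a1 (0.12 ± 0.12) and Scgb3a2 (0.42 ± 0.15) were not called, nor was the enzyme Cyp2f2 (0.30 ± 0.16). Scgb3a1, another secretory marker, had the largest difference of the 21 and also the widest error, 1.70 ± 0.53, and was not called (limma, adjusted p = 0.149). At 6 h limma called none of the 21. An unadjusted p below 0.05 was found by limma for 6 of them, and for 19.8% of all probes. The sums at 6 h overlapped (1289 to 1451 in air and 1193 to 1422 in ozone). The part of these markers in the rise of Gsta1, Gsta2 and Gsta3 was not tested. In whole lung, more cells of a type and more RNA per cell cannot be told apart.

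Between the times in air 12 of 21 club cell markers were lower at 24 h and 1 was higher. Lower at 24 h were also 7 of 13 ciliated, 7 of 13 macrophage and 6 of 9 alveolar type I markers, and 2, 1 and 2 were higher. Other lists mostly went the other way. Of 10 endothelial markers 6 were higher and 1 lower, of 7 smooth muscle markers 5 and 1, and of 9 fibroblast markers 5 and 3. Of all probes 25.1% were lower and 25.3% higher. In ozone 0.439% of all probes were called higher and 1.12% lower at 24 h. At 6 h the shares were 1.05% higher and 2.62% lower. Of 13 macrophage markers 2 were called higher in ozone at 24 h, Csf1r and Mpeg1, with sums of 14.1 to 15.1 in air and 17.2 to 22.1 in ozone; at 6 h 1 was called lower, Mrc1 (-0.39 ± 0.11). Of 13 ciliated cell markers 1 was called higher, Tppp3, with sums of 30.3 to 38.5 in air and 40.1 to 46.4 in ozone. At 6 h 2 ciliated markers were called lower, Sntn (-0.48 ± 0.13) and Mlf1 (-0.55 ± 0.13), and 3 of the 13 had a positive difference. All 9 markers of dividing cells were called lower in ozone at 24 h and 5 of 9 at 6 h. Hepatocyte markers were measured because the liver is rich in alpha-class enzymes, and 6 of the 9 on the array were tested. None was called by limma at either time, with 1 at an unadjusted p below 0.05 at 6 h and 0 at 24 h. In each group of 6 h only 3 of the 6 were well above background in all lungs, and in each of 24 h 4. The lack of calls therefore says little. Their summed level at 24 h was 7.31 to 8.29 in air and 7.29 to 9.71 in ozone. Alb, the albumin of hepatocytes, stood at -3.26 ± 0.59 in air and -3.35 ± 0.44 in ozone at 24 h (SD, n = 4 each).

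The genes whose pattern over the 16 arrays was most like that of a member were sought by Pearson's r among 16255 genes, as a description. For Gsta3 they were Csf2, Cyp3a13, Clk1, Map3k15 and Pde8b, with r from 0.957 to 0.958. Within groups their r was from 0.238 to 0.710, so most of the likeness lay in the difference between the 4 groups, the times above all. Pde8b, a phosphodiesterase of cyclic AMP, was itself called at 24 h (0.37 ± 0.08, limma adjusted p = 0.0168), and Cyp3a13, a cytochrome P450, at 6 h (0.72 ± 0.17, limma adjusted p = 0.0292). For Gsta4 the nearest gene was Hopx, a marker of alveolar type I cells (r = 0.934, and 0.827 within groups), followed by Amhr2, Scin and Pdzk1ip1.

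For Gstm1 the nearest genes were Rab6b (r = 0.935), Tle4, Gpi1, Os9 and Ccdc13, and for Gstp1 Pop7 (r = 0.970), Snf8, Polr1a, Arl4c and Glce. In both sets the likeness held within groups, at 0.861 to 0.962 for Gstm1 and 0.901 to 0.953 for Gstp1, so it followed single lungs rather than the groups. None of these 10 genes was called in ozone at either time.

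The genes most like Gsto1 were Pkp1, a desmosomal protein (r = 0.929), Krt15, a keratin of basal epithelial layers (r = 0.913), Calml3, Upk3bl and Serpinb5. Within groups their r was from 0.878 to 0.951. Krt15 stood at 2.60, 1.19, 0.64 and 1.58 in air at 6 h and at 1.83, 2.63, 1.04 and 2.79 in ozone. Air replicate 1 and ozone replicate 2, the lungs highest in Gsto1, were thus among the 3 highest in Krt15, with ozone replicate 4. Pkp1 was not well above background in 4 of the 8 lungs of 6 h, air replicates 2, 3 and 4 and ozone replicate 3. Serpinb5 was not well above background on 10 of the 16 arrays, so most of its values are near background. None of these 5 genes was called in ozone, and their part in the spread of Gsto1 was not tested.

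**Figure D5:**
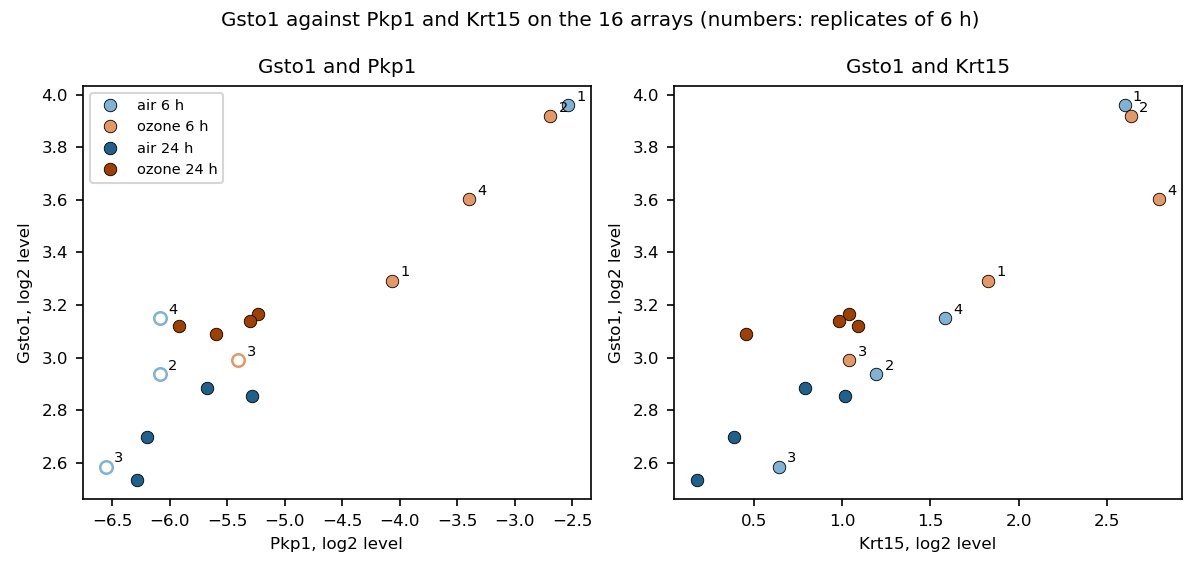
Level of Gsto1 against that of Pkp1 and of Krt15 in each of the 16 lungs (log2, relative to the 75th percentile of the array; colours are the 4 groups, numbers the replicates of 6 h, white points lungs in which the other gene was not well above background). Air replicate 1 and ozone replicate 2 of 6 h are at the upper right in both panels, with Gsto1 at 3.96 and 3.92.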

How the data were processed

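Total RNA of each lung was labelled with Cy3 and hybridised to 1 Agilent array, 4 to a slide, and each slide held 2 ozone and 2 air lungs of 1 time. Scanner output came from Agilent Feature Extraction 10.7.1.1, per the file headers. The processed signal deposited per spot is a background-corrected intensity on a linear scale; the deposited background flags gave the filter. The authors' deposited table holds log2 values whose column medians were 6.41 (6 h) and 6.73 (24 h); scale and normalization are not given in the sources used here.

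From the scanner files, spots of a probe were averaged, and log2 signals were scaled to each array's 75th percentile. The filter kept the 32343 probes without an uneven spot that exceeded background clearly on 4 or more of the 16 arrays. limma 3.58.1 in R 4.3.3 fitted 4 group means with a mean-variance trend, two-sided. Scripts were tested on simulated data. A gene is represented by its brightest probe, and the text names all 10 genes, every called gene of the lists (at most 6 per list and time) and the 5 genes most like 5 members. Some genes that this rule takes are not reported here. Precision is limited by the number of arrays.

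Whether replicate numbers pair the lungs was not settled. The 8 same-number correlations of deviations ran from -0.03 to 0.14, and 4 of them were over 0.1. The genes and lists were chosen with earlier results of these data known. The alternatives were normexp (offset 50), quantile normalization, other probe filters, array weights, Xist, the deposited table, slide and replicate blocks, single slides, single times and leaving out each lung.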

Additional observations from a re-analysis of the deposited data

Results flagged for a closer look

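In 3 of the 52 sets of 4 lungs (13 probes in 4 groups) 1 lung lay far from the other 3; chance gives about 1 in 20 such sets. Gsta3 with A_51_P503625 was at 2.05 in ozone at 24 h replicate 4, where the other 3 lungs lay between 2.44 and 2.48; without this lung the difference at 24 h was 0.65 (limma, adjusted p = 0.00337). Gstm3 was at 3.74 in air at 24 h replicate 2, where the others lay between 3.90 and 3.93; without it the difference at 24 h was 0.13. Gstm5 was at 0.64 in ozone at 24 h replicate 3, where the others lay between 1.08 and 1.14; without it the difference at 24 h was 0.05.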

How the results depend on the processing

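Over 1392 alternative values for the 52 probe results, 1316 kept their direction and side of the threshold, 18 were no longer called, 18 were newly called and 40 changed sign, none of them called in either fit; the cause was not tested. At 24 h the count of 3 genes became 0 on each slide alone (2 lungs against 2), where Gsta1, Gsta2 and Gsta3 kept their sign, and was 2 to 4 otherwise. The count of 0 at 6 h became 1 with normexp (Gstm5), quantile normalization (Gsta3), array weights (Gstm2) and the deposited table (Gsta3), and was 0 to 1 when lungs were left out. In air the count of 5 became 8 with quantile normalization, 3 of them higher (Gstm1, Gstm3 and Gstp1). Beyond the members, the 1189 probes called at 6 h became 206 without air at 6 h replicate 4 and 98 with the 8 arrays of 6 h alone. With the replicate block, whose pairing is not settled, 256 probes were called at 6 h. Of the members 2 genes were then called at 24 h, since Gsta3 with A_51_P503625 missed (limma, adjusted p = 0.0566).

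Sign changes of the ozone effect at 6 h were on the slide of replicates 1 and 2: Gstm1 -0.091 (A_51_P479311) and -0.14 (A_52_P415215) and Gstm3 -0.32. At 24 h Gstm2 turned to 0.027 (normexp) and 0.16 (slide of replicates 1 and 2), Gstm5 to 0.0072 (Xist) and 0.18 (that slide), Gstp1 with A_51_P374457 to 0.12 (normexp) and 0.23 (that slide) and A_51_P374464 to -0.17 (the other slide). Differences of effects turned for Gsta2 with normexp (-0.016), Gstm1 with the deposited table (-0.013 for A_51_P479311 and -0.011 for A_52_P415215) and quantile normalization (-0.0033 for A_52_P415215), Gstm3 with quantile normalization (-0.0011) and the deposited table (-0.019), and Gsto1 with array weights (-0.012). In air Gstm1 with A_51_P479311 turned to -0.027 (normexp) and -0.10 (array weights). With lungs left out, values ran from -0.082 to 0.21 (Gstm3, 6 h), -0.18 to 0.053 (Gstm5, 24 h), -0.10 to 0.059 (Gstp1 A_51_P374457, 24 h), -0.035 to 0.11 (Gstp1 A_51_P374464, 24 h), -0.13 to 0.13 (Gstm1 A_51_P479311, air), and, as differences of effects, -0.071 to 0.13 (Gstm1 A_52_P415215), -0.041 to 0.25 (Gstm3) and -0.17 to 0.28 (Gsto1).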
